A study of Arabidopsis thaliana with 6 samples.

Results

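The 5mC domains are stretches of the Arabidopsis thaliana genome at which DNA fragments carrying methylated cytosine (5mC) were enriched by an antibody. The set was taken as every line of the deposited 5mC domain list and nothing else, which gave 12238 of the 25306 domains in the 2 lists of the series. The plants were wild type of the accession Col0 (the strain of the reference genome), grown on soil at 22.5 °C with 8 h of light and 16 h of darkness, and young leaves were taken. There were 2 libraries of methylated DNA immunoprecipitation (MeDIP, fragments pulled down with an anti-5mC antibody) and 2 MeDIP inputs (genomic DNA without antibody), beside 2 chromatin immunoprecipitations of another mark that are not described here. No treatment, mutant or second genotype was part of the design. Young leaves hold many cell types, and the list does not tell a site methylated in all cells from one methylated in some of them.

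In plants, MET1 copies methylation at CG sites, the chromomethylases CMT2 and CMT3 act at non-CG sites of heterochromatin, and DRM2 adds methylation guided by small RNAs (RNA-directed DNA methylation). Transposons and repeats around the centromeres are the best known methylated sequences of the leaf genome. Many moderately expressed genes also carry CG methylation within their bodies, away from both ends. Antibody pull-down reads the density of methylated cytosines in a fragment, so thinly methylated sequence is less readily recovered.

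The list held 1 position and 1 whole-number read count for each domain, with no value per replicate. No replicate error can therefore be given, and every comparison below describes 1 list without a test. The domains held 28021211 reads in all, a sum that depends on how much was called, and the total depth of each library is unknown here. Together the domains held 17.2 Mb of 119 Mb, or 14.4% of the nuclear chromosomes. The median width was 450 bp and the median density 1073 reads per kb. Every width was a multiple of 150 bp, no gap was shorter than 300 bp and no domain held fewer than 97 reads.

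Methylated domains filled most of the sequence next to the centromeres and thinned out over a few megabases. Distance was measured from the centre of the gene-poor run of each chromosome, called the pericentromere and found from gene positions alone. In the first 1 Mb on each side, 68.0% of bases lay in domains, with a range of 53.5 to 81.1% over the 10 chromosome sides. Between 1 and 2 Mb the value was 46.1%, between 2 and 3 Mb it was 20.8%, and between 3 and 4 Mb it was 8.24%. In the bins it fell below 10% from 3 Mb outward on 9 of the 10 sides and from 4 Mb on the right side of chromosome 3. Short end pieces of chromosomes were left out of the bins, among them the left end of chromosome 2, where 1 window of 100 kb had 61.4%. The decline went on slowly along the arms, from 5.50% at 5 to 6 Mb to 3.51% at 8 to 9 Mb and 1.95% at 12 to 13 Mb. Across the bins of 1 Mb of a chromosome, which share 1 list, Spearman's rho between coverage and distance lay between -0.82 on chromosome 3 (24 bins) and -0.97 on chromosome 2 (20 bins).

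**Figure D1:**
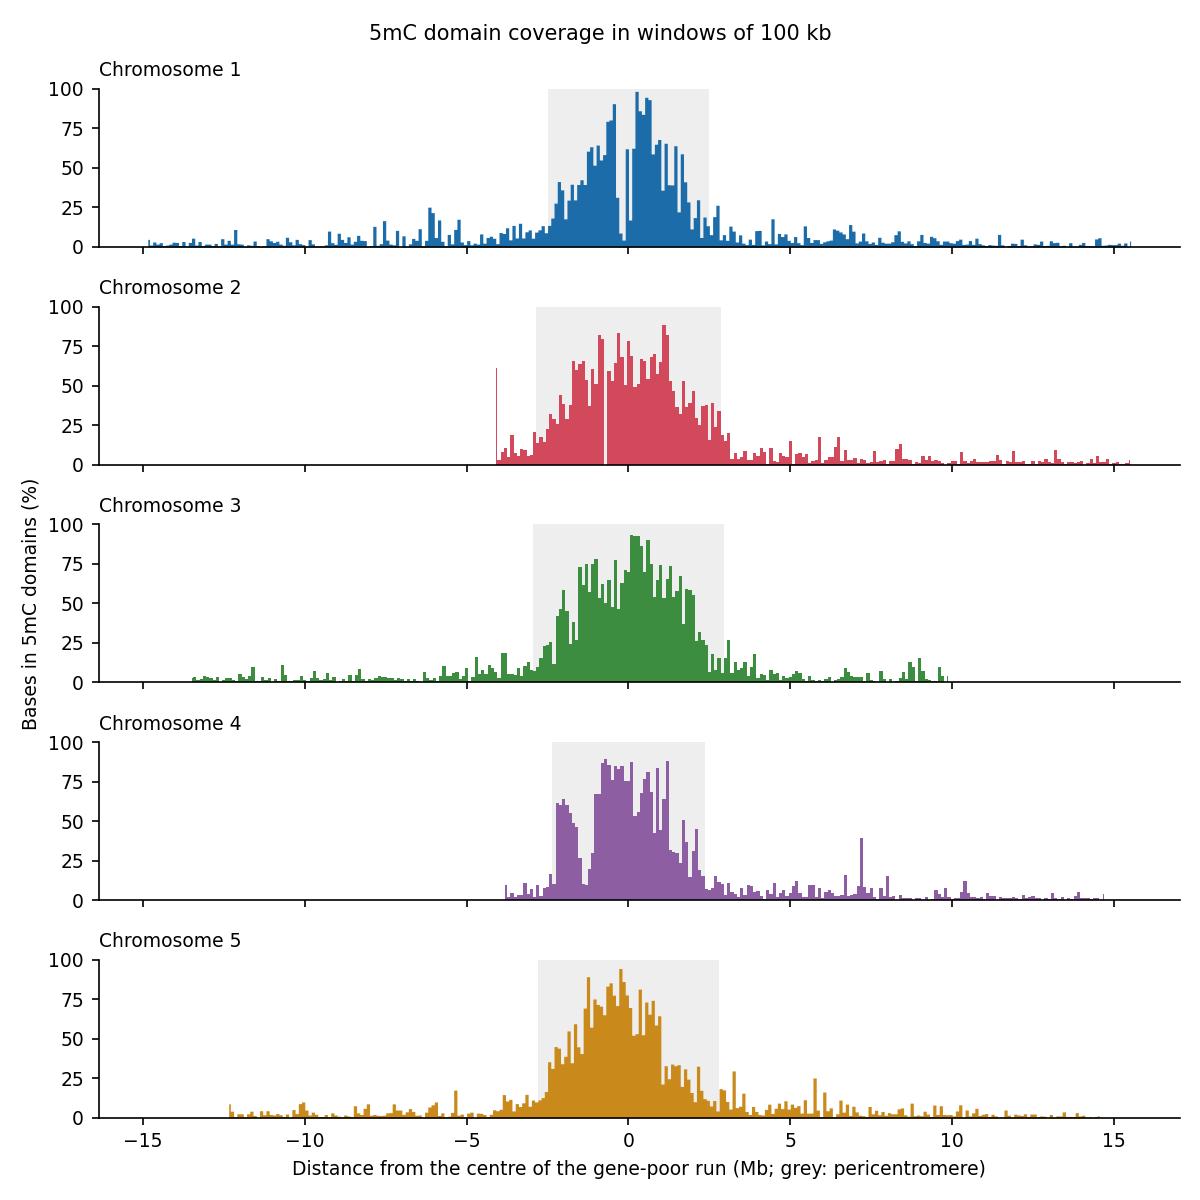
Share of bases in 5mC domains (%, vertical axis) in windows of 100 kb against distance from the centre of the gene-poor run (Mb, horizontal axis), with 1 panel per chromosome and the pericentromere in grey. Coverage is high in the grey regions of all 5 chromosomes, and 1 arm window, the left end of chromosome 2 with 61.4%, reaches 40% or more.

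The number of domains and their width did not follow the same course. Pooled over all sides, domains were most frequent at 1 to 2 Mb, with 259.8 per Mb, against 239.6 per Mb in the first 1 Mb. Their median width was 1.05 kb in the first 1 Mb, 0.6 kb in the next and 0.3 kb in each bin from 4 Mb outward. The number was lower in the first 1 Mb than in the second on 5 of the 10 sides and higher on the other 5, whereas the median width was larger in the first on 9 sides and equal on 1. Far out, at 12 to 13 Mb, 42.3 domains remained per Mb.

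The profile was not smooth on chromosomes 1 and 4. On the short arm side of chromosome 4, 7 windows in a row between 1.6 and 2.3 Mb from the chromosome's left end had 46.5 to 64.0% of their bases in domains, and the next 5 windows together held 19.3%, before coverage rose again towards the centre. Col-0 is known to carry a heterochromatic knob on the short arm of chromosome 4, whose limits the gene table does not mark. On chromosome 1, windows with 4.35% and 8.80% lay 0.15 and 0.25 Mb left of the centre, and a window with 98.5% lay 0.25 Mb to the right of it. The low windows included domain-free stretches of 58.05 kb and 56.25 kb. How much known sequence the assembly holds there was not analysed.

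**Figure D2:**
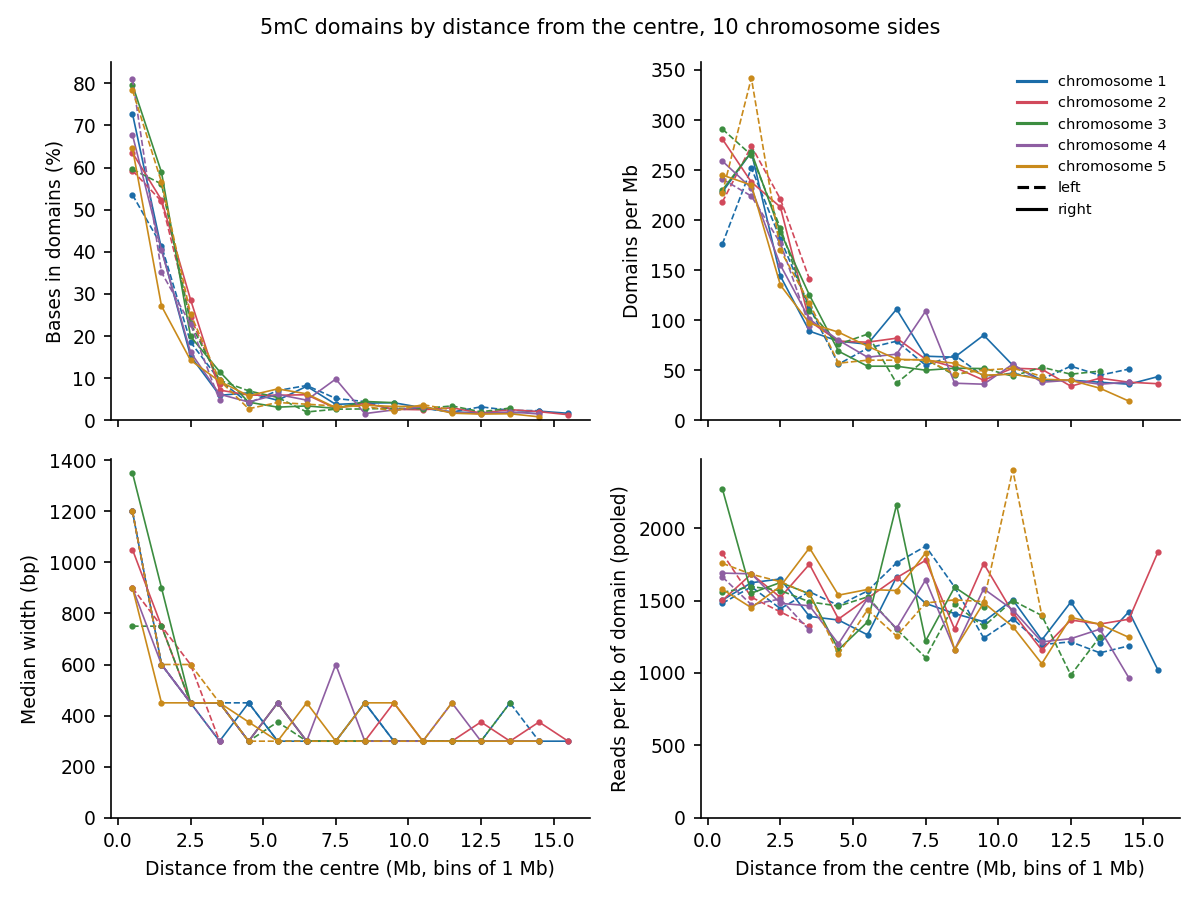
Coverage (% of bases in domains), domains per Mb, median width (bp) and pooled reads per kb of domain in bins of 1 Mb (vertical axes) against distance from the centre (Mb), with 1 line for each of the 10 chromosome sides. Coverage, number and width fall within 4 Mb of the centre, and reads per kb run between 965.7 and 2402 in the bins shown, with no comparable drop. Short end pieces are not shown, among them the left end of chromosome 2 with a domain of 11353 reads per kb.

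Reads per kb of domain, pooled over a bin, changed far less than coverage. The value was 1699 in the first 1 Mb and 1478 beyond 5 Mb, a difference of 220 reads per kb. The difference was 12.9 on chromosome 1, 163 on chromosome 2, 524 on chromosome 3, 231 on chromosome 4 and 164 on chromosome 5. Chromosome 3 stood apart through a single domain with 2 ribosomal RNA genes. The first 1 Mb right of its centre gave 2272 reads per kb with that domain and 1549 without it. Leaving out the 10 domains with the most reads per kb brought the difference over the genome to 141, and leaving out chromosome 3 brought it to 143. Among domains of at least 1000 bp the sign turned, to -38.7. Across the bins, Spearman's rho between pooled reads per kb and distance was negative on all 5 chromosomes. It lay between -0.29 on chromosome 2 and -0.66 on chromosome 4, with -0.62 on chromosome 1. For the median of the domains in a bin it lay between -0.014 on chromosome 5 and -0.53 on chromosome 3.

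Wide domains were denser than narrow ones and lay mostly near the centromeres. Domains of 3000 bp or more were 12.2% of the list but held 60.9% of its bases and 70.1% of its reads, and 84.1% of them were pericentromeric. Domains of 300 bp or less were 40.9% of the list and held 4.32% of its reads, and 38.6% of them were pericentromeric. The median density was 927 reads per kb in the narrow class and 1634 in the wide class. A floor of reads per domain ties density to width in the narrowest domains, so the 2 measures are not independent.

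At matched width the order was the other way round, with denser domains on the arms. Among domains of 3000 bp or more, the median was 1795 reads per kb on the arms (quartiles 1497 and 2137, 238 domains) and 1614 in the pericentromeres (quartiles 1389 and 1872, 1257 domains). The medians were 1314 and 1195 reads per kb for domains over 900 bp and under 3000 bp, 1067 and 956 at 450 to 900 bp, and 947 and 893 at 300 bp or less. The arm median was the higher one in 20 of 20 combinations of width class and chromosome, although the quartile ranges overlapped in each width class. Some were near ties: 940 against 938 at 300 bp or less on chromosome 1, and 1014 against 1012 at 450 to 900 bp on chromosome 4. Along distance, the wide class went from 1571 reads per kb in the first 1 Mb to 1626 at 1 to 2 Mb, 1738 at 2 to 4 Mb, 1781 at 4 to 8 Mb and 1802 beyond 8 Mb. The class of 300 bp or less had 880 reads per kb in the first 1 Mb and 973 beyond 8 Mb. Both middle classes were highest at 4 to 8 Mb, with 1070 and 1345 reads per kb, and stood at 1037 and 1197 beyond 8 Mb.

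**Figure D3:**
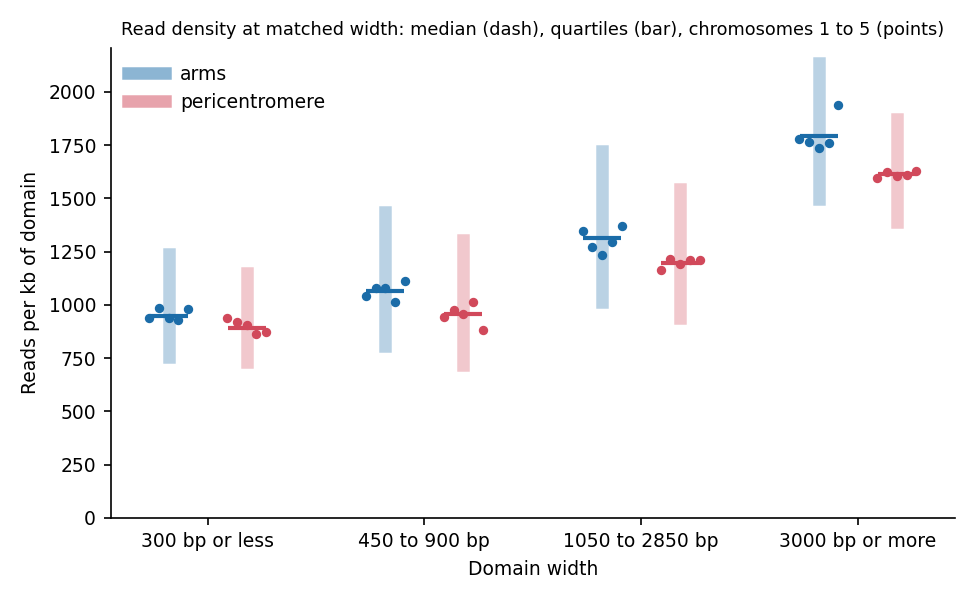
Reads per kb of domain (vertical axis) in 4 classes of domain width for arms (blue) and pericentromeres (red), where dashes are medians over all domains, bars span the quartiles and points are the medians of chromosomes 1 to 5. The arm dash is above the pericentromere dash in every class, from 947 against 893 to 1795 against 1614.

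Neighbouring domains stood close together near the centromeres and far apart on the arms. The median gap was 0.75 kb in the pericentromeres (6411 gaps) and 8.4 kb on the arms (5822 gaps). Gaps of at most 1 kb were 58.0% of the pericentromeric gaps and 14.9% of the arm gaps. Gaps over 10 kb were 3.77% and 45.8%. The shortest gap the list allows, 300 bp, occurred 1716 times in the pericentromeres and 345 times on the arms, so many neighbours there were separated by the least distance at which domains stay apart. Neighbours also resembled each other a little: the correlation of their reads per kb was 0.23 for gaps up to 1 kb (4583 pairs), 0.067 for 1 to 10 kb (4742 pairs) and 0.022 beyond 10 kb (2908 pairs). For the widths of neighbours the correlation was 0.243, 0.115 and 0.028 in the same order. These are Spearman coefficients over pairs from the same libraries, given as a description. Over all 12238 domains, Spearman's rho between width and reads per kb was 0.37, and the likeness of neighbours in reads per kb was not adjusted for width.

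**Figure D4:**
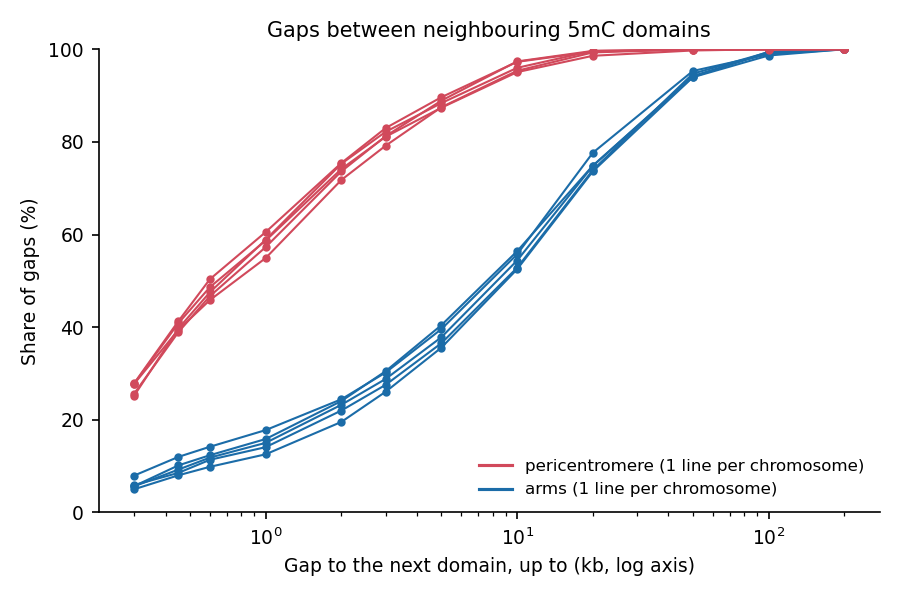
Share of gaps (%, vertical axis) no longer than the length on the horizontal axis (kb, log axis), with 1 line per chromosome for pericentromeres (red) and arms (blue). The 2 families of lines stay apart over most of the range, with medians of 0.75 kb and 8.4 kb, and the 5 chromosomes lie close together in each.

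Long stretches without any domain were an arm feature with 1 large exception. Of 331 gaps over 50 kb, 326 lay on arms, and 53 gaps exceeded 100 kb. Those 53 stretches came to 6.43 Mb and touched 1872 protein-coding genes and 51 pseudogenes. These counts are to be read beside the arms as a whole, with 25017 protein-coding genes and 1252 pseudogenes in 92.2 Mb. Of the 53 stretches, 52 lay on arms. The pericentromeric one, on chromosome 2, touched 44 of the protein-coding genes and 19 of the pseudogenes. The longest spanned 172.65 kb at chr2:13884751-14057400 and touched 50 protein-coding genes, among them COP1, the E3 ligase that represses light responses, and AGO6, an Argonaute of RNA-directed DNA methylation. A stretch of 172.2 kb on chromosome 1 held the meiotic synapsis genes ZYP1a and ZYP1b, 1 of 170.1 kb on chromosome 5 held WOX2, a homeobox gene of the early embryo, and 1 of 167.4 kb on chromosome 3 held RHD3, which shapes the endoplasmic reticulum. The fifth, of 163.05 kb on chromosome 5, held HDA6, a histone deacetylase needed for silencing of transposons.

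The exception lay on chromosome 2, where the longest pericentromeric stretch without a domain bordered the widest domain. That domain spanned 97.8 kb at chr2:3281551-3379350 with 2493 reads per kb. It closed a run of 6 domains over 156.75 kb that was 98.6% filled and held 50 protein-coding genes, 28 pseudogenes and 10 tRNA genes. All 50 protein-coding genes were covered to at least 50% of their span, beside 3.69% of all protein-coding genes. Directly after it came 124.2 kb without a domain, at chr2:3379351-3503550, with 44 protein-coding genes, 19 pseudogenes and 13 tRNA genes. Chromosome 2 is known to carry an insertion of mitochondrial DNA in its pericentromere, whose limits the gene table does not mark. How reads that match several places were treated is not given in the sources used here, and its part in this step was not tested.

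Clusters were formed by linking domains up to 2 kb apart, and those of at least 5 domains were counted. There were 403 clusters with 4310 domains, which is 35.2% of the domains and 58.7% of the bases in domains. Of these, 373 clusters were pericentromeric and held 63.8% of the domains there, and 30 lay on arms and held 3.78% of the domains there. Single domains were 62.0% of arm domains and 10.6% of pericentromeric ones. The median pericentromeric cluster spanned 20.4 kb and was 76.6% filled. The share of all domains in clusters was 18.1% when only domains at or above the median reads per kb were used, and 22.1% with a link of 1 kb.

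The clusters with the most domains were long stretches of pseudogenes, the class in which this gene table places transposon genes such as the ONSEN copies below. The one with the most spanned 563.55 kb at chr1:15038101-15601650, with 117 domains, 91.2% of its bases filled, 66 pseudogenes and 4 protein-coding genes. The next, at chr3:13568251-13990200, had 77 domains and 55 pseudogenes. A cluster of 74 domains at chr5:11192701-11274750 was built differently, from narrow domains with a median width of 300 bp, 62.7% filled, with 9 pseudogenes. Close before it lay a domain of 11.85 kb at chr5:11177251-11189100 that carried 11439 reads per kb, the fifth highest density in the list. The remaining large clusters, with 68 and 51 domains, lay on chromosome 4 and held 46 and 53 pseudogenes.

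The arm cluster with the most domains sat on chromosome 4 over a row of protein-coding genes. It spanned 47.7 kb at chr4:11046001-11093700, with 42 domains of median width 750 bp, and held 21 protein-coding genes from AT4G20520 to AT4G20670 and no pseudogene. The distance from a domain start to the start 3 domains further on had a median of 3300 bp (quartiles 3225 and 3300 bp, coefficient of variation 6.16%, 39 steps), a measure chosen after the values were seen. This cluster fills the arm peak of chromosome 4 in the plot of coverage by window. The next arm clusters, with 13, 10 and 9 domains, held 4, 10 and 3 pseudogenes and no protein-coding gene.

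An array of tRNA genes on chromosome 1 carried narrow domains at near-regular steps. The array repeats a unit of 1 gene for a serine tRNA followed by 2 genes for tyrosine tRNAs. It holds 81 genes over 39.7 kb, with 27 tRNA-Ser and 54 tRNA-Tyr genes. Of all 625 nuclear tRNA genes, 33 were touched by a domain, or 5.28%. In the array, 19 of 27 tRNA-Ser genes and 1 of 54 tRNA-Tyr genes (AT1G57460) were touched, and 17 of the tRNA-Ser genes were covered to at least 50%. The 19 domains of the array were narrow, 13 of them 150 bp, with 109 to 260 reads each, close to the floor of the list. Every one of the 19 touched a tRNA-Ser gene, and 16 of the 18 steps between their starts lay within 150 bp of their median of 1500 bp, and the other 2 were longer. The 8 untouched tRNA-Ser genes included a run of 6 in a row. Outside the array 13 of 544 tRNA genes were touched, 10 of them in the run of domains beside the gap on chromosome 2. Over the whole table, 13 of 20 amino acid types had no touched gene. The array was chosen after its values were seen, and its copies resemble each other, so the placement of reads among them is uncertain.

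**Figure D5:**
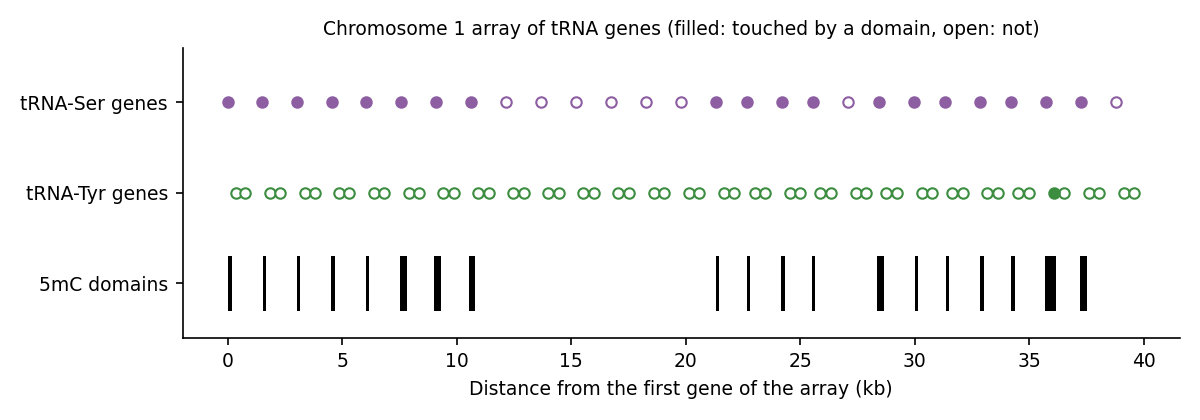
Map of the tRNA gene array on chromosome 1, with distance from its first gene on the horizontal axis (kb), tRNA-Ser genes on the top row, tRNA-Tyr genes on the middle row (filled where touched by a domain) and the 19 domains as black bars. The bars stand at 19 of 27 tRNA-Ser genes, about 1500 bp apart, and 1 of 54 tRNA-Tyr genes is filled.

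The 5 chromosomes differed in coverage, from 11.3% on chromosome 1 to 17.4% on chromosome 2, with 13.0% on chromosome 5, 15.9% on chromosome 3 and 16.8% on chromosome 4. The order was that of the share of each chromosome that is pericentromere, which was 16.4%, 20.8%, 25.1%, 25.3% and 28.9% for chromosomes 1, 5, 3, 4 and 2. Coverage of arms alone lay between 4.20% (chromosome 5) and 4.77% (chromosome 2), and coverage of pericentromeres between 46.2% (chromosome 1) and 53.6% (chromosome 4). Pericentromeres held 67.1% of the 5mC bases of chromosome 1 and 80.7% of those of chromosome 4. The median gap followed the same split, at 3.0 kb on chromosome 1 and 1.65 kb on chromosomes 2 and 4.

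Arm by arm, both short arms stood above the others. The left arm of chromosome 2, 1.3 Mb long, had 13.1% coverage and 3784 reads per kb, and its first domain made up 3.13 points of that coverage, with 1418 reads per kb in the rest of the arm. The left arm of chromosome 4, 1.5 Mb long, had 6.18%. That value leaves out the high run at 1.6 to 2.3 Mb, which falls within the pericentromere as defined here and enters its coverage of 53.6%. The other 8 arms lay between 3.91% and 4.91%. Both short arms lie nearer to the centre of their chromosome than most of the sequence of the other arms.

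Both domains with ribosomal RNA genes were among the 10 with the most reads per kb. The domain of 19.35 kb at chr3:14189701-14209050, with the ribosomal RNA genes AT3G41768 and AT3G41979, carried 610730 reads, 31562 per kb, which is 2.18% of all reads in domains (95% Wilson interval 2.17 to 2.18%, counting error only). The first domain of chromosome 2, at chr2:1051-41700, with the ribosomal RNA genes AT2G01010 and AT2G01020, carried 461499 reads, 11353 per kb and 1.65% of the total (1.64 to 1.65%). Ribosomal RNA genes stand in long arrays at the ends of chromosomes 2 and 4, of which an assembly holds few copies. How far reads of other copies were placed in these domains was not tested. The 10 densest domains held 5.08% of the reads in 91.5 kb. At the other end, the 5 least dense domains carried 336 to 370 reads per kb.

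The densest domain of all was narrow and on an arm. It measured 750 bp at chr2:7190851-7191600, lay over the protein-coding gene AT2G16586 and carried 38853 reads per kb. Domains of 450 bp with 17002 and 13907 reads per kb lay over AT5G10340 and at the right end of chromosome 2, at chr2:19697701-19698150. Of the 12 densest arm domains, 4 touched a gene named as an extensin, a class of hydroxyproline-rich cell wall proteins whose coding sequence is repetitive: the EXT11 pseudogene (8995 reads per kb), EPR1 (7514), EXT6 (6669) and EXT10 (6556).

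Genes with extensin in a name were therefore counted as a group, chosen after these values were seen. Over all 27444 protein-coding genes, 15.6% were touched by a domain and 3.69% were covered to at least 50% of their span. Of 26 protein-coding extensin-named genes, 14 were touched and 7 covered. Their median length was 2997.5 bp, against 2078 bp over all protein-coding genes, and these counts were not adjusted for length. The classical members (EXT genes and EPR1) had 6 of 7 covered, up to 95.2% in EPR1 (AT2G27380), 94.0% in EXT6, 89.1% in EXT10 and 76.1% in EXT12. EXT4 had none, with its nearest domain 11150 bp away. The leucine-rich repeat extensins LRX1, LRX2 and LRX3 were covered to 39.0, 50.5 and 38.9%. Of 14 PERK genes, receptor kinases with an extensin-like outer part, 4 were touched and none exceeded 23.4%. The 14 domains on these genes had a median of 2029 reads per kb, from 1388 to 7514, where 3512 arm domains on protein-coding genes and no pseudogene had a median of 997. The group was picked through its densest domains, which enter this median, so a high value was partly set in advance. The same holds for the counts of touched and covered genes, which include EPR1, EXT6 and EXT10. Widths were not matched either: all arm domains over 900 bp and under 3000 bp had a median of 1314. EXT13 lies in a pericentromere. Extensin genes resemble one another, so the placement of reads among them is uncertain.

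On the arms, most domains by number lay inside protein-coding genes, while domains touching a pseudogene held a large part of the bases. Of 5825 arm domains, 3052 or 52.4% lay wholly inside a protein-coding gene, where protein-coding genes span 64.7% of the arm sequence. Among arm domains of at least 1000 bp this share was 18.9%. These were narrow (median 300 bp) and thin (971 reads per kb), and held 31.1% of the arm bases in domains. The 644 domains touching a pseudogene, 11.1%, were wider (median 1500 bp) and denser (1486 reads per kb) and held 40.7% of the bases, where pseudogenes span 2.43% of the arm sequence. All arm domains touching a protein-coding gene and no pseudogene held 42.3%. A further 1496 lay outside any annotated gene, 364 crossed an edge of a protein-coding gene and 96 held a whole one. In the pericentromeres 46.2% of domains touched a pseudogene and held 80.3% of the bases, and 7.97% lay inside a protein-coding gene. The share inside protein-coding genes varied little between the arms of the 5 chromosomes, from 49.3% on chromosome 2 to 54.9% on chromosome 3.

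Domains inside arm genes lay a median of 782.5 bp from the nearer gene end, and 67.2% of them lay at least 500 bp from it. Counting every place inside the same genes equally would give 666 bp and 60.3%. The genes that held these domains had a median length of 3428.5 bp, against 2109 bp over all arm protein-coding genes. The even placement was computed within these same longer genes, and the cause of the remaining difference was not tested. Of 25017 arm protein-coding genes, 13.1% were touched and 1.85% were covered to at least 50%. A single domain touched 2892 of them, 345 had 2, 40 had 3, 7 had 4 and 2 had 5.

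The arm genes with the most separate domains had 3 to 5 each. SPI, a BEACH-domain protein of cell shape, had 5 domains over a 15114 bp span with 6.95% of its bases covered, and AT2G34100 had 5 with 46.2%. DCL1, the Dicer that makes miRNAs, had 4 domains and 27.8% covered. The spliceosomal helicase gene emb1507 had 4 with 34.6%, the Elongator subunit ABO1 had 4 with 25.4%, the translation initiation factor EIF4G had 4 with 17.5%, and the mitochondrial protease gene ftsh10 had 4 with 15.1%. In each of these the domains left most of the gene free, whereas AT1G27570, with 3 domains, was covered to 91.2%.

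Protein-coding genes inside domains over their whole span numbered 421. The longest were AT2G08986 (8403 bp, in a domain of 4052 reads per kb) and AT4G11373 (5780 bp). Named ones among the 10 longest were ABCI4, which lies in the widest domain, and UBQ13, a ubiquitin gene on the arm of chromosome 1 (4758 bp, 1604 reads per kb). By chromosome, 2.88, 5.74, 3.90, 3.59 and 3.10% of the protein-coding genes of chromosomes 1 to 5 were covered. The arms alone gave 1.78 to 1.99%, so the lead of chromosome 2 lay in its pericentromere, where the run of domains beside the long gap holds 50 of the covered genes.

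Of 20 writers, readers and erasers of methylation, 7 were touched, or 35%, and 1 was covered, beside 15.6% touched and 3.69% covered over all protein-coding genes. These 20 genes span 2842 to 9422 bp, where the median over all protein-coding genes was 2078 bp. A longer gene has more room to meet a domain, and the counts of this and the following gene lists were not adjusted for length. MET1, CMT2, CMT3, DRM1, DRM2 and DDM1, which place or maintain methylation, had none, and their nearest domains were 2346 to 16504 bp away. The covered gene was MET2A, a relative of MET1 (listed as DMT2), with 53.8% of its span in 2 domains of 1311 and 1066 reads per kb. The histone methyltransferase genes SUVH5 and SUVH6 had 1 domain of 150 bp each. IBM1, a histone demethylase gene with a known methylated intron, had 300 bp at 753 reads per kb. DME, the demethylase of the central cell, had 150 bp at 1213 reads per kb.

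Of 14 genes of RNA-directed DNA methylation, 5 or 35.7% were touched, again beside 15.6% over all protein-coding genes, and none was covered. These genes span 2008 to 9259 bp, and the count was not adjusted for length. RDR2, the RNA polymerase that makes the double-stranded precursor of the small RNAs, had the highest value, 28.7% in 2 domains, and NRPD1, the large subunit of RNA polymerase IV, had 11.4%. CLSY1, a chromatin remodeller that brings RNA polymerase IV to its sites, had 24.8% at 834 reads per kb. DRD1, a remodeller needed by RNA polymerase V, had 14.7% in 2 domains of 1133 and 1057 reads per kb. NRPE1, DCL3, AGO4 and AGO6 had none, and DMS3 had a domain 509 bp away. Within the lists, CMT3, KYP, HDA6, AGO6 and MEA lay inside domain-free stretches of over 100 kb.

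Imprinted genes and loci with known epialleles (versions that differ in methylation) were touched more often than the 15.6% of all protein-coding genes. The difference was neither tested nor adjusted for gene length. Of 14 imprinted or repeat-controlled genes, 6 or 42.9% were touched, and AGL36, a maternally expressed MADS-box gene, was covered to 85.6% at 1085 reads per kb. AGL28 had 28.9%, and MEA, PHE1 and FIS2, genes of seed development, had none. FWA and SDC, silenced through repeats near their starts, had 5.87 and 12.4%. Of 13 loci with known epialleles, 7 or 53.8% were touched. HISN6B, which encodes an enzyme of histidine synthesis, was covered to 92.5% (959 reads per kb) and its paralog HISN6A to 48.1% (843 reads per kb). Of the resistance genes in 1 cluster, RPP4 had 41.8% in 3 domains, RPP5 13.8% and SNC1 10.5%. QQS, a gene found only in this species, had 17.4%. PAI1, PAI2 and PAI3, tryptophan pathway genes that are methylated in another accession, had none. TAD3, ALN and YUC10 were untouched with a domain 127, 533 and 772 bp away. Over all 61 protein-coding loci of the lists, 25 or 41.0% were touched and 3 covered, in a set chosen for known ties to methylation and not adjusted for length.

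All 11 transposon loci of the lists, which the gene table classes as pseudogenes, were covered, beside 72.1% of all pseudogenes and 42.2% of arm pseudogenes. The lowest was EVD, a Copia retrotransposon, with 78.1%. The 8 copies of ONSEN, a heat-responsive Copia retrotransposon, had 91.9 to 100% of their span in domains, on arms as well as in a pericentromere. CAC1, a CACTA DNA transposon, had 93.8% at 2636 reads per kb. The copies resemble each other, so the reads of single copies are uncertain.

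Counts for gene families of common functions are to be read beside the 15.6% touched and 3.69% covered of all protein-coding genes. AGAMOUS-like MADS-box genes had 10 of 98 touched and 7 covered, with AGL86 (97.7%), AGL90 (93.6%) and AGL92 (90.9%) beside AGL36. Of 84 genes for low-molecular-weight cysteine-rich peptides, 3 were touched. Among 250 cytochrome P450 genes, 25 were touched and 2 covered, with CYP705A32 at 100%. Of 127 ABC transporter genes, 20 or 15.7% were touched, close to the share of all genes, and 3 covered. Ribosomal protein genes (3 of 62), histone genes (1 of 22) and photosystem or chlorophyll-binding genes (1 of 44) had no covered member. Kinesin genes, with a median length of 5151 bp, had 8 of 17 touched and none covered. Receptor-like kinase genes had 11 of 34 touched and 1 covered. Family sizes, lengths and positions differ, and these counts were not adjusted for them.

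MicroRNA genes split by conservation. Of 326 miRNA genes, 14.4% were touched by a domain. None of the 87 genes of 22 conserved families was touched, whereas 47 of the other 239 were, 35 of them covered. All 5 MIR854 genes were wholly covered, all 6 MIR8167 genes were touched (3 wholly covered), and both MIR5642 genes lay inside the domains of the ribosomal RNA genes. Of the 47 touched genes, 21 were pericentromeric, out of 45 miRNA genes there (46.7%). The other 26 were on arms, out of 281 (9.25%). Protein-coding genes were touched at 41.0% in the pericentromeres and 13.1% on the arms. The sets differ in position and copy number, and no test of the difference was made.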

How the data were processed

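Each line of the deposited 5mC list holds a position and the authors' count of reads in the domain, a whole number that was not normalized. Bowtie, SICER and the build TAIR10 are named per the submitters' processing notes. The sources used here give no versions or thresholds, and do not say how the input, the replicates and reads with several matches were used. Reads per kb were computed from these counts and used within the list only.

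Positions are counted from 1. The annotation was RefSeq's for TAIR10.1 (37899 nuclear genes), which gives no strand, exons, descriptions or transposon classes. Its fit to the build was checked by sliding pseudogenes against domains: in 22 of 23 segments of 5 Mb the overlap peaked at a shift of at most 100 bp, and the largest shift was 150 bp. No coordinate of that table is printed, and no sequence was used. Pericentromeres (26.9 Mb) were the runs of windows of 100 kb with protein-coding coverage, averaged over 11 windows, under 0.7 of the chromosome's median. A gene was touched from 1 bp of overlap and covered from 50% of its span.

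Members and lists were chosen with earlier results of these data known. All 72 loci of the lists were found. The rule for named items took the loci of the lists, the 10 widest, 5 widest arm, 10 densest and 5 least dense domains, the 5 longest stretches without a domain, the 5 clusters with the most domains, the 10 longest wholly covered genes, the 10 arm genes with the most domains and up to 4 members per family. The text names a part of these and gives the rest as counts or ranges. Names in the table matched 1, 0 and 0 genes for the families of disease resistance, self-incompatibility and Ulp1 protease genes, which were left out. The extensin, tRNA and miRNA counts and the density at matched width were added after the values were seen. The overlap and spacing code was tested on simulated data. Python 3.11.15, numpy 2.4.6, pandas 2.3.3, scipy 1.17.1 and matplotlib 3.10.9 were used.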

Additional observations from a re-analysis of the deposited data

How the results depend on the processing

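No paired analysis was possible because the list carries no replicate values, and no replicate could be left out for the same reason. With only domains at or above the median reads per kb, the share of gaps of at most 1 kb went from 37.5 to 26.0%, the share of domains in clusters from 35.2 to 18.1%, the difference in coverage between the first 1 Mb and beyond 5 Mb from 64.6 to 54.8 points, the share of arm domains inside protein-coding genes from 52.4 to 44.3%, the covered loci of the lists from 3 to 1, and the difference in reads per kb from 220 to 41.7. With only domains of at least 1000 bp, these became 32.4% of gaps, 25.3% of domains in clusters, 18.9% inside genes and a reversed difference of -38.7 reads per kb, and covered protein-coding genes went from 1013 to 655. The share of short gaps was 25.4% with a limit of 500 bp and 9.89% after merging neighbours up to 600 bp apart. The share in clusters was 22.1% with a link of 1 kb and 50.7% with 5 kb. Covered protein-coding genes numbered 4281 (25 list loci) with any overlap and 674 with 80% of the span. The share of arm domains inside genes was 46.6% with pericentromeres cut at 0.5 of the median and 50.7% with 2.5 Mb on each side. The difference in reads per kb was 101 as a difference of medians over domains. The reversal was the only change of direction among 55 alternative values. Coverage differed between near and far in the same direction under every alternative run, including without each chromosome in turn. Spacing, clustering, chromosome coverage and gene counts over the whole list do not use the pericentromere limits, so those alternatives gave no value for them. Alternatives chosen after seeing the data were the removal of the 10 densest domains, the extensin count at or above the median reads per kb (7, as reported) and the tRNA-Ser count from 50% of the span (17 against 19). The cause of these shifts was not tested. What limits the list is the unknown depth and calling threshold: a gene without a domain may carry methylation below it.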

Other observations

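Other non-coding genes differed in how often they met a domain. On the arms, none of 273 snoRNA genes and 2 of 77 snRNA genes were touched, against 212 of 3030 lncRNA genes and 18 of 185 genes of the class ncRNA. Of the arm protein-coding genes, 13.1% were touched. The classes differ in length: arm medians were 92 bp for snoRNA, 153 bp for snRNA, 342 bp for lncRNA and 755 bp for ncRNA genes. The median of arm protein-coding genes was 2109 bp. In the pericentromeres 182 of 450 lncRNA genes (40.4%) were touched, 148 of them covered (32.9% of the 450). Of the protein-coding genes there, 41.0% were touched and 22.7% covered, so the touched share was close to that background. These shares and the arm counts were not adjusted for length either. The share of arm pseudogenes covered to at least 50% ranged over the 5 chromosomes from 38.5% on chromosome 3 to 50.5% on chromosome 5. The second highest was 43.4% on chromosome 2.

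Apart from the domain with ribosomal RNA genes at the left end of chromosome 2, the widest arm domains each held 5 or 6 pseudogenes and no protein-coding gene. They measured 16.65 kb at chr2:10592251-10608900 with 2229 reads per kb, 14.85 kb at chr1:9676501-9691350 with 1642, 14.7 kb at chr3:8843551-8858250 with 1492 and 14.4 kb at chr2:7005151-7019550 with 1886. The EXT6 domain, at chr2:10622401-10624200, lies close to the first of these.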
